A study of Homo sapiens with 6 samples.

Results

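The regions described here are stretches of open chromatin that held more reads in the mid population than in the high population in every replicate of the human embryonic stem cell line WA09. They are called mid-open regions below. A region was chosen when it lay on an autosome, had a mean of 2 or more CPM (the count divided by the sample's total and multiplied by 1000000) over the 6 samples, and had a log2 ratio of high over mid of -0.6 or less in each of the 3 same-numbered pairs, with 0.5 added to each CPM. The rule was met by 498 regions of 118556 in the deposited table. Of the 98989 autosomal regions with a mean of 2 CPM or more, which are called eligible regions below, the 498 are 0.503%. The opposite rule, a ratio at least as far above 0 in each pair, was met by 1096 eligible regions (1.11%). The counts of all 6 samples chose the regions, so their high and mid values are given as a description, with no test.

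The samples were 3 replicates of GCTM-2highCD9highEPCAMhigh cells (the high population) and 3 of GCTM-2midCD9mid cells (the mid population, whose titles say low), sorted from WA09 cultures. The comparison asks where chromatin accessibility differs between the high gate, which the study used to enrich cells with a high capacity for self-renewal, and the mid gate, which is another fraction of the same culture. The assay was FAST-ATAC, a version of ATAC-seq for small numbers of sorted cells: the enzyme Tn5 cuts exposed DNA and leaves sequencing adapters at each cut. All samples come from 1 cell line, the label of the mid gate does not name EPCAM, and no library of unsorted cells was used here. The 6 libraries held 15486251 to 29025274 reads in the regions, and the mid total was above the high total in each pair.

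Chromatin is open to Tn5 where nucleosomes have been moved or removed, as at promoters, enhancers and insulators. Promoters of housekeeping genes, which often sit in GC-rich sequence, tend to give wide and strongly cut regions in every cell type, while enhancers give narrower regions that differ between cell types. Open regions are spread unevenly, since gene-dense chromosomes hold many promoters close together. In a sorted population, a region that is open in more cells and a region that is cut more often in the same cells cannot be told apart. Gene names and sequences are not given, because the counts are on the genome build hg19 and the annotation used here is of GRCh38. The furthest region of chromosome 1 in the table ends at 249240142, beyond the 248956422 bases of that chromosome in GRCh38.

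The mid-open regions had a median log2 ratio of -0.81 in pair 1, -0.80 in pair 2 and -0.75 in pair 3. All eligible regions had medians of 0.11, 0.08 and 0.08. Averaged over the pairs, the decrease ran from -0.62 to -1.50 with a median of -0.80, and 40 regions had a mean of -1 or less. The SD of a region's 3 ratios had a median of 0.118 and reached 0.660, and the rule itself limits this spread. The smallest decrease was in pair 3 for 222 of the regions, in pair 1 for 148 and in pair 2 for 128.

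Most of the 498 lay close to the threshold. The pair nearest to 0 was within 0.1 of -0.6 in 307 regions and within 0.05 in 185. Just inside were the regions on chromosome 8 from 39806783 to 39807778, chromosome 19 from 36389388 to 36392167 and chromosome 9 from 135818922 to 135821128, whose pair nearest to 0 had a log2 ratio of -0.60 in each case and whose means were -0.68, -0.68 and -0.68. Just outside were the regions on chromosome 19 from 18302000 to 18306156, chromosome 16 from 49312976 to 49318110 and chromosome 19 from 1043969 to 1048372, with means of -0.71, -0.76 and -0.67. A region just outside could thus have a larger mean decrease than a region just inside. Another 1774 eligible regions reached -0.6 in 2 pairs and 9310 in 1 pair.

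In 493 of the 498 regions, every mid CPM was above every high CPM. Among all eligible regions that held for 9.94%, and the rule used the same counts. The 5 regions whose groups overlapped, chosen after their values were seen, were on chromosome 14 from 78684706 to 78685303, chromosome 15 from 80295048 to 80296029, chromosome 19 from 28329014 to 28330662, chromosome 22 from 18446820 to 18447944 and chromosome 3 from 181860045 to 181861844. The last of these had 12.7, 7.49 and 6.94 CPM in high replicates 1, 2 and 3, and 24.7, 17.5 and 12.4 CPM in mid replicates 1, 2 and 3. Its groups overlapped because high replicate 1 lay above mid replicate 3. With replicate number as a block, edgeR's quasi-likelihood test called 496 of the 498 higher in the mid population (threshold of 0.01 on the Benjamini-Hochberg adjusted p-value). It called 3.77% of all regions and 4.36% of eligible regions in that direction. DESeq2 with the same block called 446 of the 498, where 3.18% of all regions were called. Since the rule read the same contrast, nothing is drawn from these counts. The edgeR count was 286 without mid replicate 2 and likewise 286 without both samples numbered 2, and the share over all regions is not given for these 2 fits. The 2 that were not called, named after their values were seen, were the region on chromosome 14 from 78684706 to 78685303 and a region on chromosome 20 from 19578671 to 19579322.

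Replicates that a choice did not use gave a description of how far it carried over. When regions were chosen on pairs 2 and 3 alone, 1047 were found, and in pair 1 83.6% of them had a ratio below 0, against 42.2% of all regions that could have been chosen. Of the 750 chosen on pairs 1 and 3, 96.7% were below 0 in pair 2, against 42.5%. Of the 1481 chosen on pairs 1 and 2, 91.4% were below 0 in pair 3, against 40.4%. The median ratio in the pair left out was -0.58, -0.69 and -0.47 for pairs 1, 2 and 3. The share that also reached -0.6 in the pair left out was 47.8% in pair 1 (6.72% of all such regions), 65.9% in pair 2 (4.97%) and 33.5% in pair 3 (2.89%). In each pair the direction held in most of the regions, and the size of the threshold was met in fewer. Of the chosen regions, 304, 273 and 504 with pairs 1, 2 and 3 left out were on chromosome 19, which held 2.95% of eligible regions. There the median over all eligible regions was itself -0.50, -0.42 and -0.21 in pairs 1, 2 and 3. The shares over all regions are therefore not the background of that chromosome, and the carry-over was not separated from it.

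As a share of each library, reads in the mid-open regions made up 1.27%, 1.32% and 1.23% in high replicates 1, 2 and 3. In mid replicates 1, 2 and 3 they made up 2.36%, 2.49% and 2.17%. The exact 95% binomial interval of the highest high share was 1.319% to 1.330% and that of the lowest mid share 2.165% to 2.176%, which cover counting error only. The high mean was 1.27% ± 0.0492 and the mid mean 2.34% ± 0.158 (SD, n = 3 each). The rule made each region lower in the high library of every pair, so the lower high share in each pair was fixed in advance. These values describe its size only. A single region on chromosome 20, described next, held 11839 of the 205151 reads in high replicate 2 and 57194 of the 573915 in mid replicate 2.

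By the ratios of the rule, the largest mean decrease belonged to a region of 2361 bp on chromosome 20 from 26188468 to 26190828. It had 728, 764 and 647 CPM in high replicates 1, 2 and 3, and 1896, 2477 and 1744 CPM in mid replicates 1, 2 and 3. The high mean was 713 ± 60.2 CPM and the mid mean 2039 ± 387 CPM (SD, n = 3), with log2 ratios of -1.38, -1.70 and -1.43. Its place as the first depended on the scale: relative to a loess fit on average log2 CPM its mean ratio was -0.91, against -1.63 for the region on chromosome 8 and -1.57 for that on chromosome 5 described next, relative to chromosome medians it was -1.37 against -1.62 and -1.66, and with a pseudocount of 0.1 it was -1.50 against -1.80 and -1.55. Without replicate 2 it was -1.40, against -1.53 and -1.42, and without replicate 1 it was -1.56, against -1.59 and -1.59. It also held the most reads of all 498, with 45930 to 57194 counts per mid library, and its mean over the 6 samples was 1376 CPM against 144 CPM for the next. It ended 24.3 kb before the widest stretch without regions on chromosome 20, which ran from 26215128 to 29580764.

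The 4 regions that followed it in mean decrease were all at most 1095 bp wide. On chromosome 5 from 122990546 to 122991108, the CPM values were 3.95, 4.58 and 2.75 in high replicates 1, 2 and 3 and 9.65, 14.2 and 9.72 in mid replicates 1, 2 and 3, a mean log2 ratio of -1.46 ± 0.241 (SD over the 3 pairs). The eligible neighbours of this region within 100 kb did not share the change, with a median mean ratio of 0.31 over 3 neighbours. On chromosome 8 from 42132066 to 42132616, the values were 1.39, 2.13 and 0.381 CPM in the high and 3.82, 5.98 and 2.73 CPM in the mid replicates, with a mean ratio of -1.46 ± 0.368. Its high replicate 3 rests on 10 reads, the smallest count of any mid-open region in any sample. Its 11 eligible neighbours had a median mean ratio of -0.07. On chromosome 12 from 38543582 to 38544244, the values were 31.4, 30.2 and 27.7 CPM in the high and 70.8, 101 and 70.5 CPM in the mid replicates, with a mean ratio of -1.41 ± 0.288. Here a region of only 663 bp held as many reads as regions several kb wide. Its 5 eligible neighbours shared the direction of the change, with a median mean ratio of -0.54. On chromosome 19 from 2268940 to 2270034, the values were 10.5, 9.94 and 6.83 CPM in the high and 27.5, 26.1 and 20.2 CPM in the mid replicates, with a mean ratio of -1.40 ± 0.0857. Its 15 eligible neighbours had a median mean ratio of -0.20, so that its own mean ratio relative to its surroundings was -1.19.

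**Figure D1:**
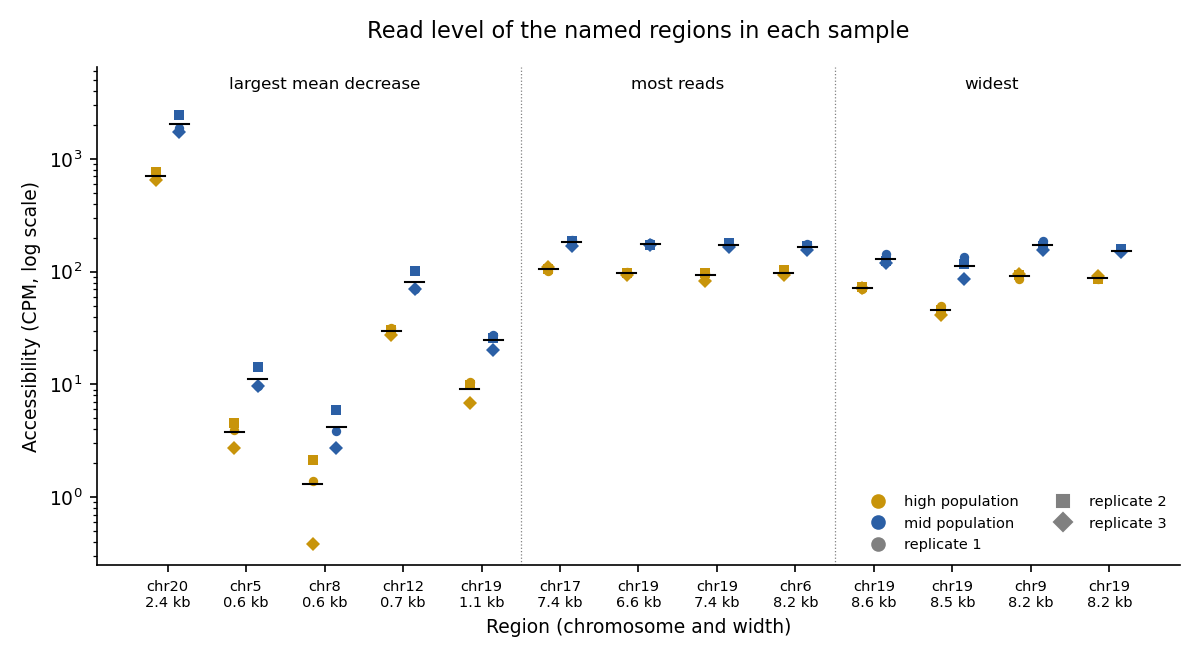
Accessibility in CPM (log axis) of the 13 named regions in each sample, with the high population in yellow, the mid population in blue, circles, squares and diamonds for replicates 1, 2 and 3, and a black line at the mean of 3 replicates. Every mid value lies above every high value of the same region, from the region on chromosome 8 (means of 1.30 and 4.18 CPM) to that on chromosome 20 (713 and 2039 CPM).

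The regions with the most reads after that on chromosome 20 were wide and changed less. On chromosome 17 from 2298795 to 2306194, a region of 7400 bp had 101, 105 and 110 CPM in high replicates 1, 2 and 3 and 192, 186 and 170 CPM in mid replicates 1, 2 and 3, with a mean ratio of -0.79 ± 0.152. On chromosome 19 from 54480249 to 54486838, the values were 99.3, 97.7 and 94.3 CPM in the high and 179, 174 and 172 CPM in the mid replicates, with a mean ratio of -0.85 ± 0.0194. The pairs differed least in this region among the 5 with the most reads. The region on chromosome 19 from 7932822 to 7940196 had a high mean of 93.0 ± 8.48 CPM and a mid mean of 174 ± 8.62 CPM (SD, n = 3), and that on chromosome 6 from 32934921 to 32943121 had 98.1 ± 4.90 and 166 ± 10.5. The mean ratios of the last 2 were -0.90 and -0.76, and in all 4 regions the groups did not overlap.

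The widest mid-open region covered 8579 bp on chromosome 19 from 46141450 to 46150028, with 69.8, 73.7 and 71.2 CPM in the high and 144, 123 and 119 CPM in the mid replicates. The next, 8542 bp on chromosome 19 from 2473945 to 2482486, had 49.6, 45.7 and 41.5 CPM in the high and 134, 116 and 86.7 CPM in the mid replicates. With ratios of -1.43, -1.33 and -1.05, it was the only region of 4 kb or more that reached -1 in each pair. It was among 8 regions in all that did so. The other 3 of the 5 widest lay on chromosome 9 from 131934692 to 131942905, on chromosome 6 (described above) and on chromosome 19 from 47728407 to 47736576, with mean ratios of -0.90, -0.76 and -0.81.

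Width was not used by the rule. The median mid-open region was 2500 bp wide (quartiles 1564.5 and 3803.75), against 968 bp (738 and 1461) for all eligible regions and 929.5 bp (765 and 1147.25) for the regions of the opposite rule. Of the 498, 106 (21.3%) were 4 kb or wider, where 1.78% of eligible regions were. The mid-open regions had a median of 29.1 CPM against 4.72 CPM for all eligible regions. Per kb of width the medians were 10.3 and 4.80 CPM. The difference in level thus remained, in smaller size, once width was divided out. Unlike width, level entered the rule, through the CPM minimum and the pseudocount, which shrinks ratios most at low CPM. The median width moved with both. It was 2272 bp with a pseudocount of 0.1, 3183 bp with 2 and 2787 bp at a minimum of 5 CPM. The opposite rule, with the same settings, gave a median of 4.87 CPM. How much of the level or width came from these settings was not tested. No test was made across regions, because neighbouring regions are not independent replicates.

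The share of eligible regions that were chosen rose with width, from 0.142% under 1 kb and 0.309% between 1 and 2 kb to 1.80% between 2 and 4 kb and 6.01% at 4 kb or more. The width also moved with the centring of the ratios. When each pair's ratio was taken relative to a loess fit on region width, 529 regions met the rule with a median width of 1004 bp, and 252 of them (47.6%) were among the 498 (50.6%). With a loess fit on average log2 CPM, the median width was 1114.5 bp.

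A smaller group of 74 mid-open regions was narrower than 1 kb. Their median level was 3.65 CPM, and their mean ratios reached from -0.63 to -1.46, with a median of -0.85. Only 14 of them (18.9%) were on chromosome 19. Among the 10 members of the 498 with fewer than 20 reads in a sample, sampling noise is largest, and the median over the 498 of the smallest count was 333.5 reads.

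Chromosome 19 held 221 of the 498 regions (44.4%), but 2.95% of the eligible regions. Of its 2920 eligible regions 7.57% were chosen. Chromosome 17 followed with 64 (1.72% of its eligible regions), then chromosome 16 with 33 (1.09%), chromosome 20 with 30 (1.32%), chromosome 1 with 27 (0.292%) and chromosome 22 with 22 (1.28%). At the other end, chromosome 4 had 1 of 5985 eligible regions. This region, on chromosome 4 from 7584074 to 7584674, had 2.56, 5.10 and 2.40 CPM in the high and 5.24, 9.35 and 6.04 CPM in the mid replicates. Chromosomes 2, 3, 5 and 8 each had at most 0.0698% of their eligible regions among the 498. The opposite rule had 0 regions on chromosomes 19 and 22 and 161 on chromosome 4 (2.69%).

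The 5 chromosomes with the highest shares of mid-open regions also had ratios below 0 over their other regions. The median mean ratio of eligible regions outside the 498 was -0.33 on chromosome 19, -0.24 on chromosome 22, -0.16 on chromosome 17, -0.14 on chromosome 20 and -0.11 on chromosome 16, and 0.28 on chromosome 4. The order was not the same throughout, since chromosome 21, with 3 mid-open regions (0.343%), had a median of -0.12, below that of chromosome 16. Chromosome 1, with 27 regions but a share of 0.292%, had a median of 0.07. On chromosome 19, the median over all eligible regions was -0.50 in pair 1, -0.42 in pair 2 and -0.21 in pair 3. Reads in chromosome 19 regions outside the 498 made up 2.67%, 2.96% and 3.25% of high libraries 1, 2 and 3 and 3.97%, 4.15% and 3.92% of mid libraries 1, 2 and 3. The groups did not overlap. When each ratio was taken relative to the median of its chromosome in that pair, 468 regions met the rule, 171 of them among the 498 (36.5% of the 468 and 34.3% of the 498). By this centring 5 of the 221 regions on chromosome 19 and 166 of the 277 on other chromosomes were kept. The 5, named after their values were seen, were those from 2268940 to 2270034, 2473945 to 2482486, 10529782 to 10532259, 14623223 to 14631231 and 18057929 to 18063804. Of these 5 the region from 2268940 to 2270034 stood furthest out, with a mean of -1.03 relative to the chromosome median.

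**Figure D2:**
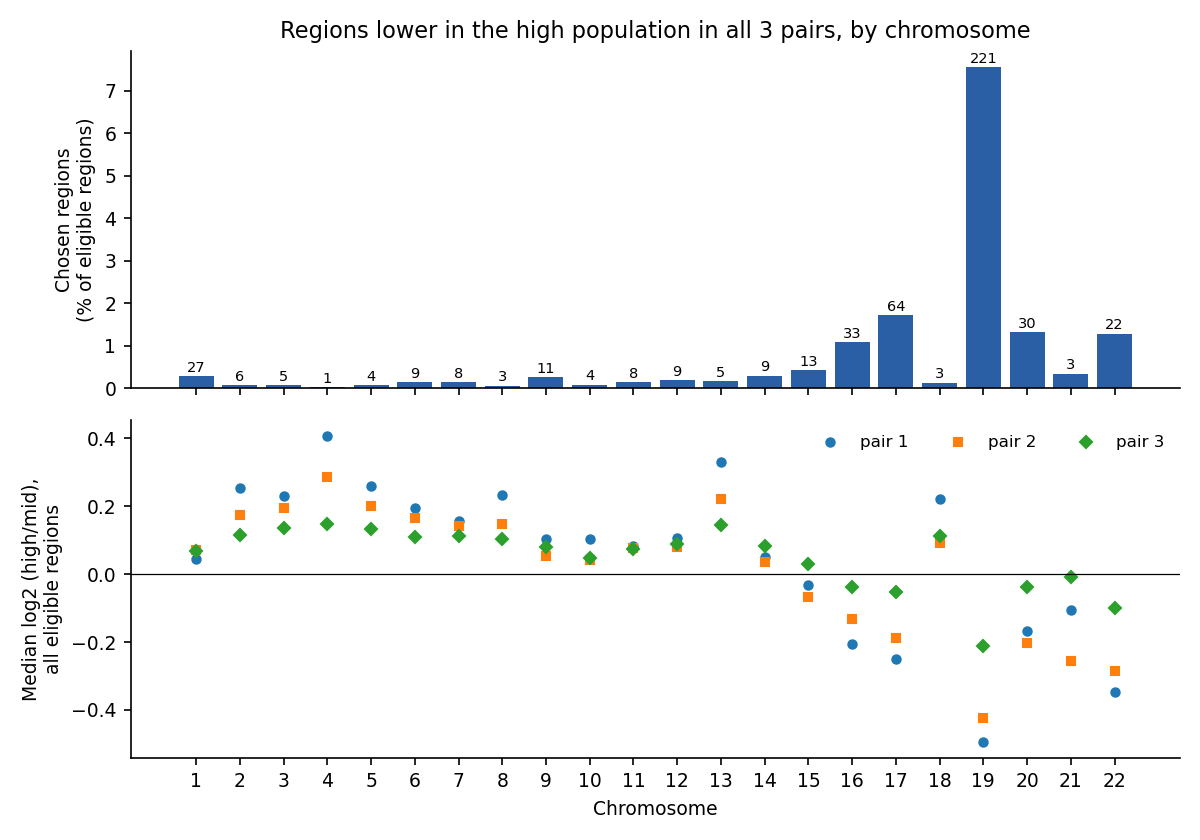
Upper panel, share of eligible regions of each autosome that are mid-open (percent, with the number above each bar). Lower panel, median log2 ratio of high over mid over all eligible regions of the same chromosome, by pair. Chromosome 19 has 221 regions (7.57%) and the lowest medians in pairs 1, 2 and 3, and chromosome 4 has 1 region and the highest medians.

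The chromosomes with the highest shares were those richest in GC, as computed over whole chromosomes of GRCh38. By rank, gene density followed the shares less closely, while over all 22 autosomes the Pearson correlation was higher with gene density than with GC content. Chromosome 11 had 9.75 coding genes per Mb and 0.150% of its eligible regions chosen, where chromosome 20 had 8.47 and 1.32%. Across the 22 autosomes the share of mid-open regions had a Spearman correlation of 0.83 with GC content (Pearson 0.75) and of 0.70 with protein-coding genes per Mb (Pearson 0.93). The median ratio of the eligible regions outside the 498 had a Spearman correlation of -0.95 with GC content. Without chromosome 19 the Spearman correlation of the share was 0.81 with GC content (Pearson 0.89) and 0.66 with genes per Mb (Pearson 0.78). That of the median ratio with GC content was -0.94. These are descriptions over chromosomes that share the same 6 libraries, and the part of base composition in the result was not tested. Chromosome 19 had 47.9% GC and 25.2 coding genes per Mb, against 38.2% and 3.98 on chromosome 4.

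Width and chromosome were seen together in the shares. Among regions of 4 kb or more, 47 of 117 on chromosome 19 were mid-open (40.2%), against 59 of 1646 on the other autosomes (3.58%). Between 2 and 4 kb the shares were 18.7% and 0.856%, between 1 and 2 kb 3.51% and 0.190%, and under 1 kb 1.43% and 0.118%. Chromosome 19 thus had the higher share in each class of width, and wide regions had the higher share on chromosome 19 and on the other autosomes alike.

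**Figure D3:**
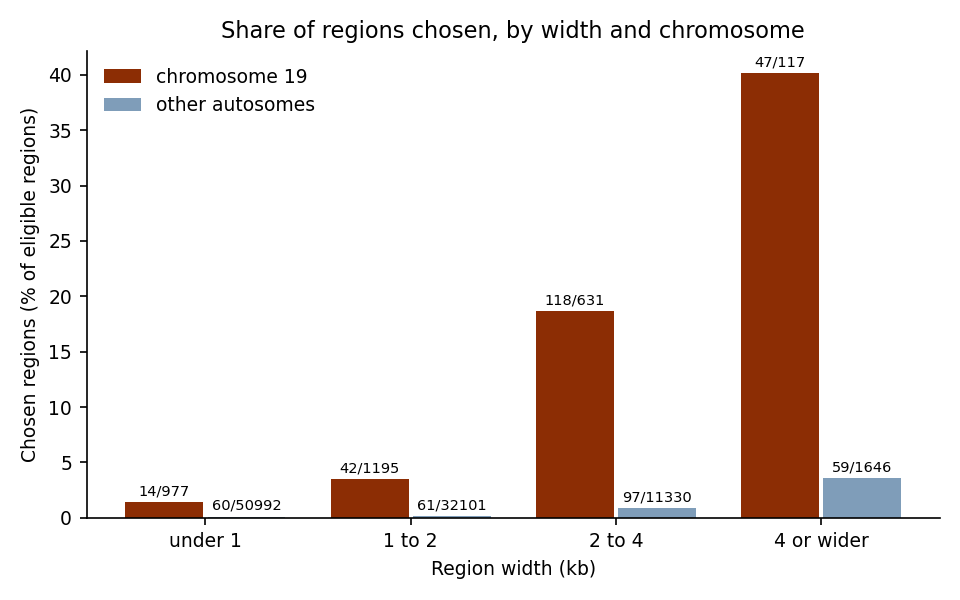
Share of eligible regions that are mid-open (percent), by class of width in kb, on chromosome 19 and on the other autosomes, with the number of mid-open regions over the number of eligible regions above each bar. The share is highest for regions of 4 kb or more on chromosome 19 (47 of 117).

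Along chromosome 19 the regions were found from end to end. In windows of 5 Mb the share of eligible regions ran from 1.18% between 30 and 35 Mb to 10.9% between 0 and 5 Mb. The shares were 9.05% between 40 and 45 Mb, 9.52% between 45 and 50 Mb and 9.76% from 55 Mb onwards. The regions outside the 498 had a negative median ratio in each of the 12 windows, between -0.24 and -0.39. On either side of the widest stretch without regions (24270661 to 28283803), 108 of 1342 and 113 of 1578 eligible regions were chosen.

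Of the 498 regions, 262 (52.6%) had another mid-open region within 100 kb, measured from edge to edge. Of the eligible regions outside the 498, 4.25% had a mid-open region that near. On chromosome 19 the shares were 84.2% and 53.8%, and on the other autosomes 27.4% and 2.86%. Some neighbours were nearly adjacent, as 48 of the 498 had another within 5 kb and 18 within 1 kb. Such rows may be pieces of the same open stretch, and they are not independent observations.

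The regions around them, though not chosen themselves, had lower ratios than the rest of the genome. Within 5 kb of a mid-open region, 313 other eligible regions had median ratios of -0.55, -0.40 and -0.25 in pairs 1, 2 and 3, and 70.6% of them were below 0 in all 3 pairs. Between 50 and 100 kb the medians were -0.36, -0.26 and -0.12, with 49.1% below 0 in all pairs. More than 1000 kb away the medians were 0.20, 0.14 and 0.11, with 12.2%, and over all eligible regions 17.8% were below 0 in all pairs. The ratio thus came nearer to 0 with distance, then crossed it. The same order of the nearest and farthest distances was seen on chromosome 19 alone (77.5% within 5 kb and 40.9% beyond 1000 kb) and on the other autosomes (65.8% and 12.1%). Among neighbours of 2 kb or more within 100 kb, 82.6% were below 0 in all pairs, against 43.9% of the narrower ones. Wide regions were also lower far away, since beyond 1000 kb the shares were 32.6% and 9.40%. Regions within 5 kb had a median width of 1463 bp and a median of 10.1 CPM, against 938 bp and 4.45 CPM beyond 1000 kb. The order by distance thus also holds a difference in width and level. Within 100 kb of any mid-open region only 1 region of the opposite rule was found, on chromosome 3 from 8704726 to 8705963, with 11.7, 13.1 and 14.2 CPM in the high and 7.55, 7.75 and 8.88 CPM in the mid replicates.

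**Figure D4:**
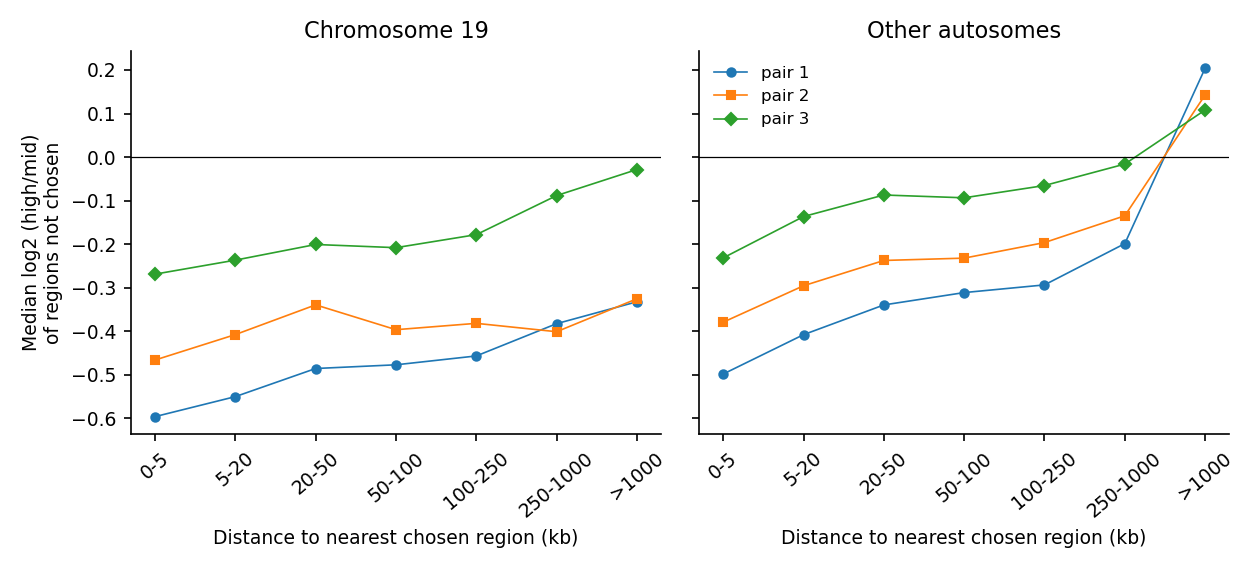
Median log2 ratio of high over mid of eligible regions that were not chosen, by distance in kb to the nearest mid-open region, for each pair, on chromosome 19 and on the other autosomes. On the other autosomes the medians go from -0.50, -0.38 and -0.23 within 5 kb to 0.20, 0.14 and 0.11 beyond 1000 kb, and on chromosome 19 they stay below 0 at every distance.

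Each mid-open region was then set against the median mean ratio of the eligible regions around it that were not chosen. In 488 of the 498 there were at least 3 such neighbours within 100 kb (median 13), and this local median was below 0 for 466 of them (95.5%), with a median of -0.32. Relative to their local median the mid-open regions had a median ratio of -0.49, which was -0.42 on chromosome 19 and -0.54 elsewhere. Relative to it 132 (27.0%) were at -0.6 or less, 29 of them on chromosome 19 and 103 on other chromosomes. The rule put every mid-open region at -0.6 or less and kept such regions out of the local median. A negative difference was thus in large part set by the rule, and these values describe its size only. The mid-open regions were also wider and higher than the others within 100 kb, with medians of 2500 bp and 29.1 CPM against 1283.5 bp and 7.69 CPM.

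Chained with gaps of 100 kb or less, the 498 regions formed 236 single regions, 39 pairs and 38 loci of 3 or more. The loci held 184 of the regions (36.9%) and spanned 44.7 to 726 kb, with a median of 118 kb. Chromosome 19 had 31 of the 38, chromosome 17 had 5, chromosome 16 had 1 and chromosome 1 had 1. Within the loci 627 eligible regions were listed, of which 29.3% were mid-open. Of the 443 others, 404 (91.2%) had a mean ratio below 0 and 66.6% were below 0 in all 3 pairs, against 39.0% and 17.8% of all eligible regions. Most of the loci are on chromosome 19, where this background is itself low. There, 65.3% of the 389 others inside loci and 57.7% of the 2310 eligible regions outside loci that were not chosen were below 0 in all pairs, with median mean ratios of -0.40 and -0.32. On chromosomes 1, 16 and 17 the shares were 75.9% of 54 inside and 26.4% of 15820 outside, with medians of -0.43 and -0.02. These 3 were pooled, with 5 loci on chromosome 17 and 1 each on chromosomes 1 and 16. Chromosome 1 had 9237 eligible regions, chromosome 16 had 3036 and chromosome 17 had 3725. Their eligible regions outside the 498 had median mean ratios of 0.07, -0.11 and -0.16. The outside value thus rests mostly on chromosome 1 and the inside value mostly on chromosome 17. The shares inside and outside loci were nearer to each other on chromosome 19 than in this pool. How much the mix of chromosomes adds to that was not tested. The number of loci moved with the centring, and was 17 when ratios were taken relative to the chromosome median, 22 with a loess fit on width and 64 with TMM scaling.

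The locus with the most mid-open regions lay near the start of chromosome 19, from 820756 to 1546724, and held 15 of them among 70 eligible regions. Summed over the 15, the level was 318, 347 and 303 CPM in high replicates 1, 2 and 3 and 589, 648 and 554 CPM in mid replicates 1, 2 and 3. The log2 ratios of these sums were -0.89, -0.90 and -0.87. Widths ran from 804 to 6339 bp, levels from 3.55 to 86.8 CPM, and mean ratios from -0.66 to -1.06, of which the rule sets the upper end. The largest mean decrease in it was -1.06, in the region from 1247788 to 1252641, with 54.0, 56.8 and 54.2 CPM in the high and 113, 128 and 106 CPM in the mid replicates. It was followed by the regions from 1545921 to 1546724 (-1.0) and from 1382847 to 1384489 (-1.0). Of the 55 other eligible regions in the locus, 53 had a mean ratio below 0.

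**Figure D5:**
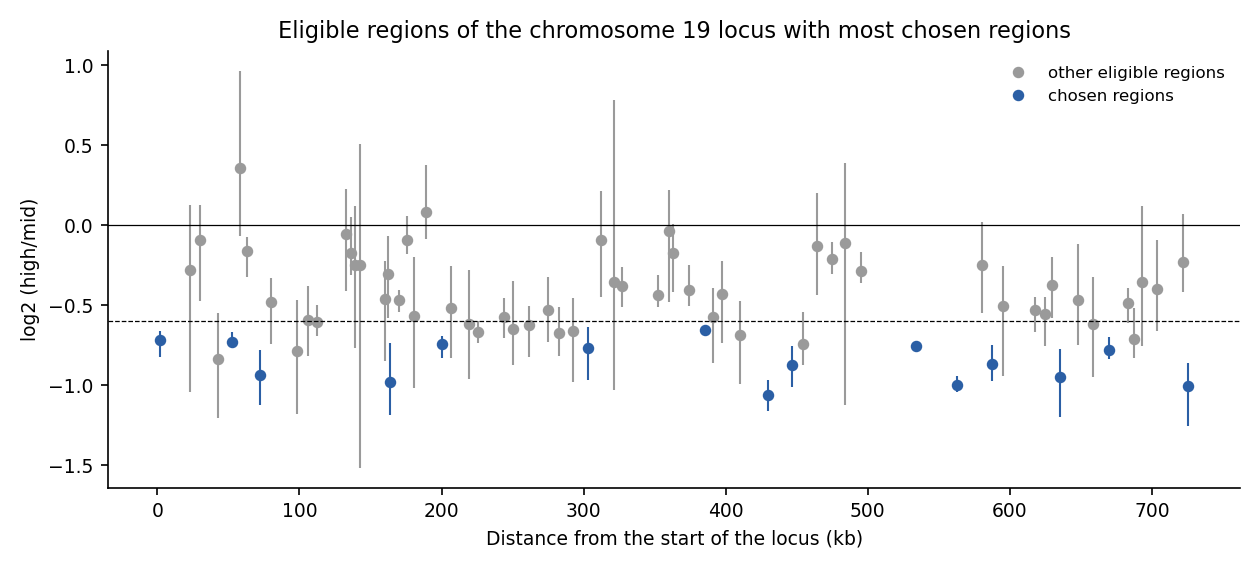
Mean log2 ratio of high over mid (points) and the range over the 3 pairs (lines) for each of the 70 eligible regions of the chromosome 19 locus with the most mid-open regions, by distance in kb from the start of the locus. The dashed line marks -0.6, the 15 mid-open regions lie wholly below it, and 53 of the 55 others have a mean below 0.

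The second locus was on chromosome 17 from 7116425 to 7390000, with 10 mid-open regions among 29 eligible ones, all 10 at least 2351 bp wide. Their summed level was 348, 354 and 346 CPM in the high and 638, 630 and 583 CPM in the mid replicates, with log2 ratios of -0.87, -0.83 and -0.75. Its largest decreases were in neighbouring regions from 7144656 to 7147471 (-1.09) and from 7140763 to 7143837 (-0.97), and the next was from 7231801 to 7234745 (-0.86). The 5 regions from 7136277 to 7167417 followed each other with no other eligible region between them. The other 19 eligible regions had a median of -0.31.

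Another pair of loci, each with 9 mid-open regions, were on chromosome 19. From 1650072 to 2098825, the summed level was 201, 225 and 191 CPM in the high and 355, 395 and 331 CPM in the mid replicates, and all 32 other eligible regions had a mean ratio below 0. From 12791082 to 13267626, it was 222, 225 and 213 CPM in the high and 402, 416 and 377 CPM in the mid replicates. The latter held a region of 7679 bp from 13259948 to 13267626 with 128 CPM on average and a mean ratio of -0.96, the largest decrease of that locus. In the former the largest was -0.94, from 1650072 to 1653735.

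The fifth locus, with 8 regions, was on chromosome 19 from 40926302 to 41121502. Summed levels were 248, 233 and 233 CPM in the high and 461, 478 and 423 CPM in the mid replicates, with log2 ratios of -0.89, -1.03 and -0.86. The region from 41034747 to 41037035 had the largest mean decrease (-1.06), followed by those from 41102062 to 41107830 (-0.98) and from 41107932 to 41112931 (-0.96). The 2 last are all but adjacent. Pair 2 was the most negative of the 3 in the summed reads here.

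Outside chromosome 19, the loci on chromosome 17 after the one above were from 46627453 to 46798330 (6 regions), 8074944 to 8131014 (4), 7516956 to 7561671 (3) and 77750259 to 77811820 (3). The first of these stood at a low level, with a summed 48.0, 48.9 and 46.1 CPM in the high and 86.2, 102 and 79.5 CPM in the mid replicates over 6 regions. All 14 other eligible regions in it had a mean ratio below 0, with a median of -0.45. The locus on chromosome 16 ran from 30644725 to 30711109 with 3 of 6 eligible regions mid-open, and that on chromosome 1 from 932147 to 1052520 with 3 of 12.

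The densest locus for its length among those of 6 or more was on chromosome 19 from 56096779 to 56167521, where 6 of 9 eligible regions within 70.7 kb were mid-open. Their summed level was 163, 164 and 142 CPM in the high and 287, 325 and 285 CPM in the mid replicates. The highest share in any locus was 4 of 5 eligible regions, on chromosome 19 from 38805780 to 38866407.

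A few mid-open regions lay beside the widest stretch of each chromosome that held no region, a stretch that spans the centromere on many chromosomes. Within 1 Mb of these stretches 16 of 824 eligible regions were mid-open (1.94%, against 0.503% of all eligible regions), and none of the 16 belonged to a locus of 3 or more. They include the strongest region of all, on chromosome 20, and 2 narrow regions with many reads. The first of these is that on chromosome 12 described above, 101 kb from the stretch. The second, on chromosome 21 from 15457030 to 15457650, held 18.4, 21.1 and 16.9 CPM in the high and 33.4, 41.8 and 33.6 CPM in the mid replicates in 621 bp. In both the groups did not overlap.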

How the data were processed

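FAST-ATAC reads of 6 sorted WA09 samples had been trimmed with Trimmomatic, aligned to hg19 with bwa (0.7.15 in the submitters' processing notes), freed of duplicates and shifted to the Tn5 cut site by the authors. They called regions with MACS on alignments combined over replicates, merged them over both populations, dropped those on the ENCODE blacklist, and used bedtools for counting. The deposited table holds unnormalized read counts. All 6 columns were mapped to samples by title. Starts are printed 1 higher than in the table, which was read as counting from 0.

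CPM used column totals. Because the regions, lists and the wish to describe loci were chosen with earlier results of these data known, no count here is independent evidence. Regions named are the 5 with the most negative mean ratio, the most reads and the largest width, those of the 5 largest loci (the 3 most negative where a locus had over 6), and 3 on either side of the threshold. Fits over all 118556 regions used edgeR 4.0.16 in R 4.3.3 (quasi-likelihood test after TMM scaling), limma 3.58.1 (loess, span 0.3) and DESeq2 1.42.0, and were tested on simulated data. Replicate number entered as a block, since the study's methods name a batch covariate. Deviations from group means correlated across regions with r of 0.199 to 0.313 for same-numbered samples and -0.259 to 0.0611 for others. The labels give each number once per population and do not say that samples came from separate cultures, whereas the methods call the replicates biological. Replicates of a group differed by more than sampling noise (chi-square per degree of freedom 3.18 to 7.49). Alternatives covered scaling, centring, pseudocount, filter, threshold, distance, block and replicates left out. Python 3.11.15, pandas 2.3.3 and scipy 1.17.1 were used for the rest.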

Additional observations from a re-analysis of the deposited data

Results flagged for a closer look

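The rule was limited to autosomes. Outside them, 8 regions met the same thresholds, 7 on chromosome X and 1 on chromosome Y. On chromosome X they were 0.221% of the 3169 regions with a mean of 2 CPM or more, where the share of eligible autosomal regions was 0.503%, and they had a median width of 1035 bp. The 3 with the most negative mean ratio ran from 24395664 to 24396689 (-1.09), from 97549051 to 97550085 (-0.95) and from 46169313 to 46170250 (-0.92). The first had 2.90, 3.62 and 2.63 CPM in high replicates 1, 2 and 3 and 7.61, 7.15 and 6.38 CPM in mid replicates 1, 2 and 3. The region listed on chromosome Y had 5.57, 9.75 and 6.02 CPM in the high and 9.37, 17.2 and 11.7 CPM in the mid replicates. Its groups overlapped. The sample titles do not give the sex of the line, and whether its reads came from chromosome Y was not tested.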

How the results depend on the processing

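The 498 regions depended on the scaling and on the rule. TMM scaling moved the median ratio of eligible regions from 0.11, 0.08 and 0.08 in pairs 1, 2 and 3 to -0.02, 0.02 and 0.03 and gave 855 regions, 64 loci and 58.6% with another within 100 kb. Relative to a loess fit on width there were 22 loci, 29.1% with another within 100 kb, a median width of 1004 bp and 28.4% on chromosome 19. Relative to a loess fit on average log2 CPM these were 24, 32.3%, 1114.5 bp and 28.6%, and relative to the chromosome median 17, 32.5%, 1856.5 bp and 1.07%. A pseudocount of 2 gave 328 regions, a median of 3183 bp and 49.7% on chromosome 19. A minimum of 5 CPM gave a median of 2787 bp. A threshold of -0.5 gave 1055 regions, 77 loci, 60.5% with another within 100 kb and 39.1% on chromosome 19, and -0.8 gave 72 regions, 1 locus and 19.4%. With no replicate block (group means compared and no overlap required in place of pairs), there were 1693 regions, 116 loci, 63.6% with another within 100 kb, a median of 2078 bp and 33.9% on chromosome 19. The share with another was 39.2% within 50 kb and 64.7% within 250 kb. Leaving out a pair, which loosens the rule, gave 750 to 1481 regions, 47 to 104 loci, 44.3% to 60.4% with another within 100 kb, medians of 1581 to 2103.5 bp and 29.0% to 36.4% on chromosome 19. Of the 498, between 286 and 487 were called by edgeR when samples or pairs were left out. With no replicate block 431 were called (1.11% of all regions), and DESeq2 called 446 (3.18% of all regions). None of these fits called any of the 498 higher in the high population. The share over all regions is not given for the fits with samples left out. Since the rule read the same contrast, nothing is drawn from these counts or from their direction. In the pair left out, the shares below 0 were 93.3%, 99.8% and 98.0% with a pseudocount of 2 and 94.3%, 99.3% and 96.9% at a minimum of 5 CPM for pairs 1, 2 and 3, and 88.0% in pair 1 with TMM. Where the rule itself was not changed, the cause was not tested. The other alternatives tried kept these values within their limits. Of 378 recomputed ratios of the 42 named regions, 275 moved by less than their spread over the pairs, 103 moved by more and 0 changed direction. Leaving out replicate 1, 2 or 3 moved 0 of 42 each time, which was fixed in advance. Any mean of 2 of the 3 pairs lies within the SD of the mean of all 3. Every pair of these regions was below 0, so neither a pair left out nor another pseudocount could change the direction. Of the 103, 38 moved by over 1.5 times, 20 of them relative to the chromosome median, 11 with the loess fit on width, 5 with that on average log2 CPM and 2 with a pseudocount of 2. With the fit on width, the ratio was -0.41 for chromosome 17 from 2298795, -0.35 for chromosome 6 from 32934921 and -0.42 for chromosome 19 from 46141450. The precision of a single ratio depends on that region's own counts and on the differences between replicates, which exceeded sampling noise. The smallest count of a region had a median of 333.5 reads over the 498, and regions under 20 reads are the least certain.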
